A study of Homo sapiens with 19 samples.

Results

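In MOLM-13 cells given Corin, 2293 stretches of chromatin away from gene starts carried the histone mark H3K4me2 in both treated libraries, in neither vehicle library, and carried no H3K27ac peak in any of 4 libraries. They were selected on measured values, the presence of H3K4me2 and H3K27ac peaks, by merging the peaks of the 4 H3K4me2 lists, 144389 in all, into 42429 union regions. A region was kept when both Corin lists and neither DMSO list had a peak on it, when it lay more than 1 kb from every annotated transcription start site (TSS), and when no H3K27ac peak of any list touched it. Of the union regions, 4090 were gained in this sense, which is 9.64% of all, and 67 were lost, 0.158%. Of the 24332 distal union regions, 3729 were gained (15.3%) and 39 were lost. The 2293 regions without H3K27ac made up 61.5% of the gained distal regions. The share gained was 18.2% among the 12591 distal regions without H3K27ac and 12.2% among the 11741 distal regions with it. These counts restate the choice of the regions and carry no test.

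MOLM-13 is a human acute myeloid leukaemia line that carries an MLL fusion gene. Corin is a compound that inhibits both the demethylase LSD1 and the deacetylases of the CoREST complex, and DMSO is its vehicle. Treatment lasted 24 h at a labelled 0.1 µM, a dose that the labels also give for the DMSO cells. Peak lists of 12 CUT&RUN libraries were analysed, with 2 libraries of Corin cells and 2 of DMSO cells for each of H3K4me2, H3K27ac and H3K4me3. The labels do not say whether the 2 libraries of a group came from separate cultures, so their spread may be technical. All groups are the same cell line, and no knockout or transgene is labelled. At the promoters of 8 myeloid markers, H3K4me3 peaks lay on 6, 7, 6 and 6 in the libraries Corin 1, Corin 2, DMSO 1 and DMSO 2. None of the 4 markers each of T cells, B cells, erythroid cells and epithelium with liver had one in any library.

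Methylation of lysine 4 on histone H3 is written in steps. The dimethyl form, H3K4me2, spreads over promoters and enhancers, and the trimethyl form, H3K4me3, marks mainly active promoters. Acetylation of lysine 27, H3K27ac, marks enhancers and promoters in use, and distal chromatin that has lysine 4 methylation without it is commonly described as primed. LSD1 takes methyl groups off mono- and dimethylated lysine 4 and cannot act on the trimethyl form. CoREST joins LSD1 to the deacetylases HDAC1 and HDAC2, and is brought to DNA in blood cells by factors such as GFI1, GFI1B and SNAI family proteins, and in other cells by REST.

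The sequences of 2 of the regions are printed here because each is the best-ranked region, by the lower of its score ranks in both Corin H3K4me2 lists, that holds a motif discussed further on. Each is the 300 bp around the region's centre, read from the hg38 reference from 5′ to 3′. Capitals mark the AP-1 motif TGANTCA in the first and a strict GFI1 motif, AATCACNGC, in the second. Both were chosen after the motif shares were known.
FMN1 intron, hg38 chr15:32908946-32909245, plus strand: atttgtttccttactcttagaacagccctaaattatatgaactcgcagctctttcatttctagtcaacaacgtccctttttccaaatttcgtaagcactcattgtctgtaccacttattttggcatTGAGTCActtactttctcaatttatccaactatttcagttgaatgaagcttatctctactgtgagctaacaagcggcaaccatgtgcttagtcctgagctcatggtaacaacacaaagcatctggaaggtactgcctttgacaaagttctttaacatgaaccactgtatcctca
near ZNRF2, hg38 chr7:30225930-30226229, plus strand: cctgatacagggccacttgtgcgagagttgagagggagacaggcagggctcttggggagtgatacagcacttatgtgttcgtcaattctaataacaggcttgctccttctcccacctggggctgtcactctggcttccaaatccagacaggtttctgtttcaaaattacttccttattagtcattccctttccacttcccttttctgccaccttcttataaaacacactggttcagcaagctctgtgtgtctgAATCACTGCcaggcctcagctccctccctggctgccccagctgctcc

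The first of these, chr15:32908670-32909522, lies in an intron of FMN1, which encodes an actin-nucleating formin, and had scores of 311 in Corin 1 and 293 in Corin 2. Its peaks covered 843 bp and 657 bp in these libraries. The second, chr7:30225721-30226438, is intergenic, 58159 bp from the TSS of ZNRF2, and had scores of 277 and 267. Its peaks covered 718 bp and 319 bp. The GFI1 letters of the second read AATCACTGC, which differ from the form that Alu repeats hold. They overlap a match to the AP-1 motif, TGAATCA, that starts 2 bases before them.

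The gained regions lacking H3K27ac were low-scoring peaks, shorter than distal regions in all 4 H3K4me2 lists and close in width to all distal regions. The H3K4me2 values below describe the choice of the regions and are not tested. The median union region was 558 bp wide, from 205 to 2659 bp. The median length under a peak was 466 bp in Corin 1 and 384 bp in Corin 2. In 1079 regions the peaks covered less than 500 bp in both libraries, and in 67 they covered at least 1000 bp in both. Gained regions with H3K27ac were about as wide, with a median of 596 bp, while distal regions present in all 4 H3K4me2 lists were wider, at 975 bp without H3K27ac and 1324 bp with it. Over all distal regions the median was 620 bp.

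The score that the authors' lists give each peak had a median of 130 in Corin 1 and 117 in Corin 2, in lists that start at 50. The same medians were 273 and 256 for the 2712 distal regions in all 4 lists without H3K27ac. Over all distal regions with a peak in the list they were 167 and 168. As percentiles within their own lists, the regions had a median rank of 24.7 in Corin 1 and 21.9 in Corin 2. Only 93 of the 2293 reached percentile 50 in both Corin lists, and 820 fell below percentile 10 in at least 1. The 1436 gained regions with H3K27ac had almost the same distribution, with 49 at percentile 50 or above in both. Across the 2293 regions the scores of the Corin libraries correlated at a Spearman coefficient of 0.413, against 0.749 across the 2712 shared regions without H3K27ac. Regions are not replicates, so these are descriptions.

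**Figure D1:**
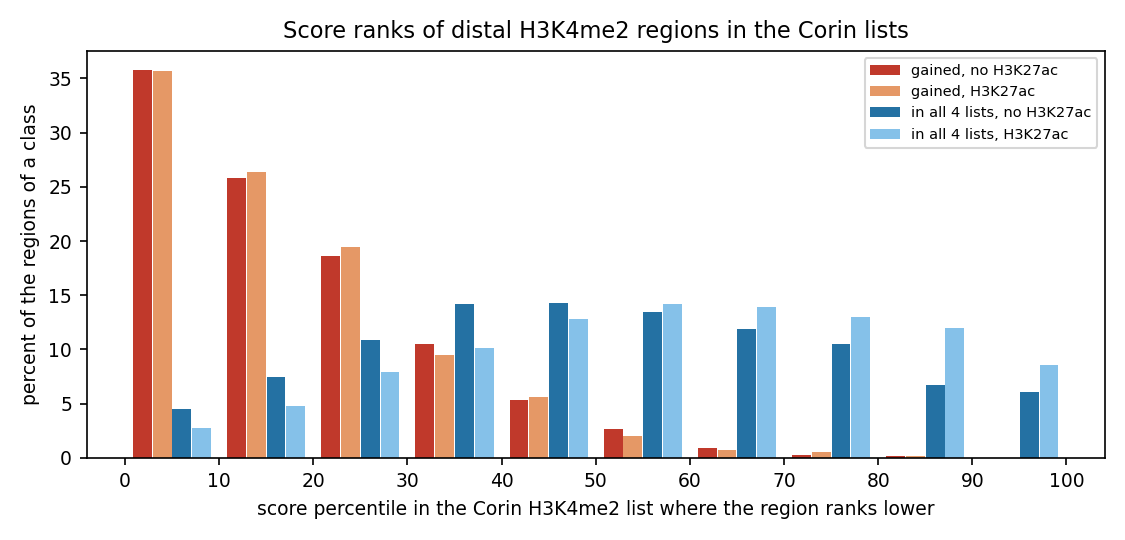
Percent of the regions of each distal class (vertical axis) by the score percentile in the Corin H3K4me2 list where the region ranks lower (horizontal axis, steps of 10); bars are the 4 classes. Gained regions crowd the low end whether or not they carry H3K27ac, with 35.8% of those without it and 35.7% of those with it in the lowest step, against 4.50% of the regions in all 4 lists without H3K27ac.

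Among the best-ranked regions were several in or near genes of varied function. The CEACAM16 region at chr19:44684977-44686207 scored 469 and 619 and overlaps the antisense RNA gene CEACAM16-AS1. An intron of LRRC25, a leucine-rich repeat gene expressed in myeloid cells, held a region at chr19:18392189-18394169 with scores of 518 and 435. Others among the first 10 had TRIM55, YPEL2, LOXL2, KDM7A and ID2 as nearest protein-coding gene. The ID2 region lay 501666 bp from that gene, within the long non-coding genes LINC00298 and LINC00299. KDM7A is itself a histone demethylase, and its region at chr7:140210001-140211321 lay 33018 bp away with scores of 369 and 395.

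The longest region by the bp covered in both Corin libraries lay 259998 bp from KLF4, a transcription factor of monocyte differentiation. At chr9:107749767-107752425, its peaks covered 2625 bp in Corin 1 and 2490 bp in Corin 2. The next longest lay 33294 bp from TLE7, in LRRC25, 121097 bp from SPRED1 and 192501 bp from UACA, with 1878 bp or more in both. The last of these lay 1975 bp from another annotated TSS. The regions closest to the 1 kb limit lay 1020 bp (in LCT), 1021 bp (near DECR1) and 1038 bp (in TLCD5) from a TSS. Gained regions without H3K27ac just inside it, at 1000, 978 and 977 bp, were left out.

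The regions lay at about the same distances from promoters as distal H3K4me2 regions at large, and more often between genes. The median distance to the nearest TSS was 13199 bp, with 597 regions (26.0%) at 1 to 5 kb and 363 (15.8%) beyond 50 kb. Over all distal regions the shares were 24.3% and 14.7%. Introns of protein-coding genes held 978 of the centres (42.7%), exons 46 (2.01%) and long non-coding RNA genes 277 (12.1%). The other 992 (43.3%) were intergenic. Of all distal regions 47.2% were in introns and 37.9% intergenic. The intergenic share was 35.5% among gained regions with H3K27ac and 48.4% among shared regions without it. The centres had a median GC content of 46.7%, close to the 47.0% of all distal regions, and below the 52.7% of shared regions without H3K27ac. Their CpG content, as observed over expected, had a median of 0.220, close to the 0.233 of all distal regions. It was 0.416 in those shared regions and 0.176 in gained regions with H3K27ac.

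The regions were scattered more than they were clustered. With gaps of at most 25 kb they formed 2037 groups, and 480 regions (20.9%) had company. There were 5 groups of 4 regions, at CLIC4 and SRRM1, FASLG, ATP2B1, CCNA1 and CPVL. A DMSO H3K4me2 peak lay within 1 kb of 315 regions (13.7%) and within 10 kb of 1203 (52.5%). By chromosome, chr19 held the most per length, 1.93 per Mb, followed by chr17 at 1.59 and chr20 at 1.27. All distal regions were densest on the same chromosomes in the same order, at 17.5, 15.0 and 12.7 per Mb.

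H3K4me3, which played no part in choosing the regions, was nearly absent from them. H3K4me3 peaks touched 1, 0, 0 and 0 of the 2293 regions in Corin 1, Corin 2, DMSO 1 and DMSO 2. The exception was a 933 bp region in an intron of HNRNPDL, an RNA-binding protein, at chr4:82426337-82427269, 2128 bp from that gene's TSS, where an H3K4me3 peak covered 301 bp in Corin 1. The 1436 gained regions with H3K27ac had none in any library. Of the 2712 shared regions without H3K27ac, 191, 203, 166 and 190 carried H3K4me3 in the same libraries, or 7.04%, 7.49%, 6.12% and 7.01%. Over all 24332 distal regions the shares were 3.29%, 3.23%, 2.70% and 3.03%, with 801, 786, 656 and 737 regions. The gained regions without H3K27ac lay below the shared regions by 6.90 percentage points on average (SD 0.569, n = 4 libraries), lower in 4 of 4. An exact two-sided sign-flip test gave p = 0.125, the smallest that 4 libraries allow. Corin libraries had 0.0218% ± 0.0308 (SD, n = 2) and DMSO libraries 0% (n = 2), with p = 1 by an exact two-sided permutation test.

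Width moves with this difference, since shared regions are wider. Among regions of 400 to 800 bp, 0 of 1255 gained regions without H3K27ac had H3K4me3 in any library. The 796 shared regions of that width without H3K27ac had it in 1.88%, 1.63%, 1.51% and 1.88%, a smaller gap in the same direction. Among regions below the middle score rank in at least 1 Corin list, the shared ones had 3.30%, 3.59%, 3.16% and 3.88%. CpG content also differed between the classes, and its part in the difference was not tested.

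H3K27ac peaks were listed near the regions more often in Corin than in DMSO libraries, though the number of libraries is too small for the test to pass. An H3K27ac peak outside the region and within 10 kb of its edges was present at 39.3% of the regions in Corin 1 and 34.8% in Corin 2, against 19.9% in DMSO 1 and 23.0% in DMSO 2. Both Corin values lay above both DMSO values. Corin libraries averaged 37.1% ± 3.15 (SD, n = 2). DMSO libraries averaged 21.5% ± 2.19 (SD, n = 2), so Corin was higher by 15.6 points, or 1.73-fold. The exact two-sided permutation test gave p = 0.333, which is the smallest that 2 libraries against 2 can give. Replicate 1 differed by 19.4 points and replicate 2 by 11.8.

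A smaller difference of the same sign was measured at the shared regions without H3K27ac, with 29.1% and 27.1% in Corin and 17.1% and 19.8% in DMSO. Over all 24332 distal regions the values were 60.6% and 55.2% in Corin and 39.7% and 42.8% in DMSO. The difference there was 16.6 points, but a peak on a region that reaches past its edge counted too. The comparison is therefore not like for like, and does not show the 15.6 points to be particular to the gained regions. The same holds for gained regions with H3K27ac, which differed by 26.4 points, and shared regions with it, by 19.6, classes chosen for H3K27ac on the region. The difference at the gained regions without H3K27ac exceeded that at the shared regions without it by 5.95 points, 7.38 in replicate 1 and 4.52 in replicate 2 (p = 0.333 by the exact permutation test). Within 1 kb the values at the gained regions were 9.46% and 5.89% in Corin and 1.79% and 1.88% in DMSO, a difference of 5.84 points, or 4.19-fold. At the shared regions they were 5.16% and 3.69% in Corin and 1.99% and 1.92% in DMSO, or 2.26-fold. Over all distal regions they were 37.8% and 30.5% in Corin and 17.4% and 18.3% in DMSO, 16.3 points or 1.91-fold. Those values include peaks on the regions that reach past an edge. The choice of the gained regions without H3K27ac removed such peaks, so neither the points nor the folds can be compared with theirs. A peak in any H3K27ac list lay within 1 kb of 268 gained regions (11.7%).

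The H3K27ac lists themselves were longer after Corin, with 34424 and 30029 peaks against 17599 and 19995. With each H3K27ac list held to its 17599 top-scoring peaks and the regions kept as they were, the values within 10 kb were 24.8% and 24.9% in Corin and 19.9% and 21.2% in DMSO. The difference shrank from 15.6 to 4.27 points, and both Corin values still lay above both DMSO values. Its excess over the shared regions was then 2.84 points. Within 1 kb the same 17599 peaks a library gave 3.62% and 2.75% in Corin and 1.79% and 1.66% in DMSO. That was 1.46 points or 1.85-fold, against 1.25-fold at the shared regions. Over all distal regions, where peaks on the regions that reach past an edge count too, it was 1.38-fold. The H3K4me2 lists were also longer after Corin, with 41152 and 40042 peaks against 30896 and 32299. With both marks held to matched numbers, 938 regions met the criteria. Of the original 2293 regions, 714 (31.1%) overlapped one of them.

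**Figure D2:**
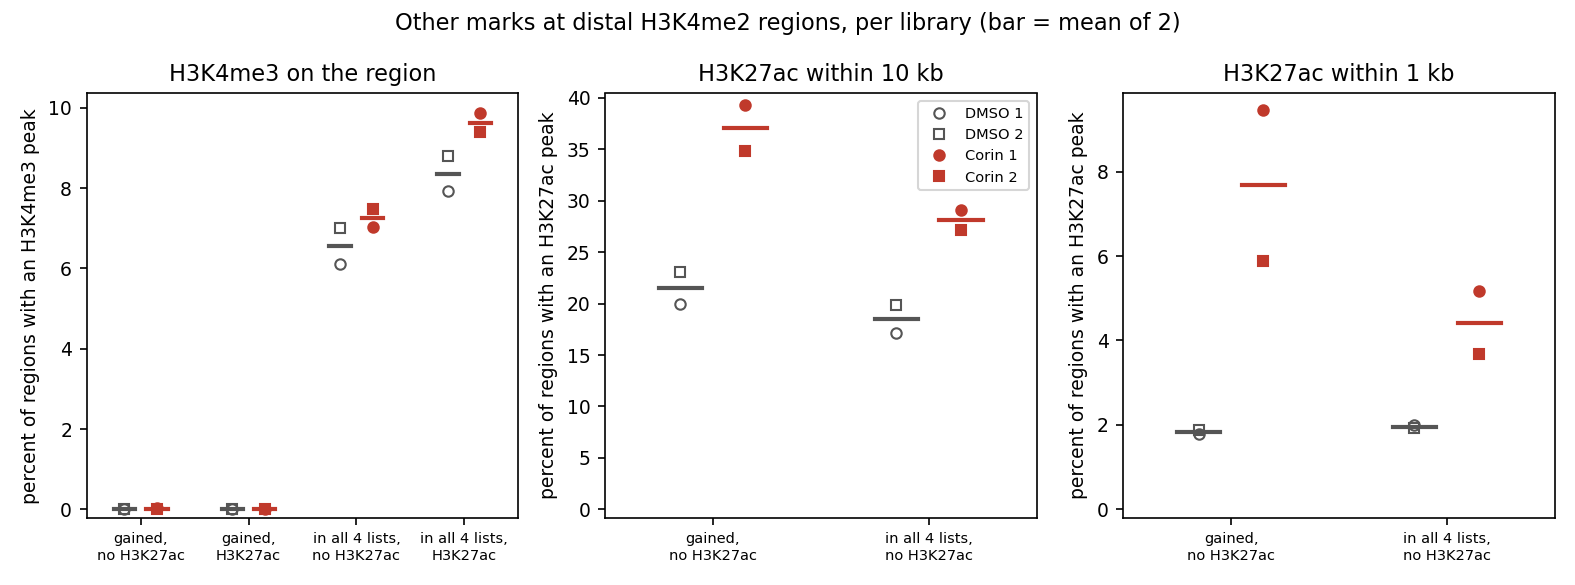
Percent of distal H3K4me2 regions (vertical axes) with an H3K4me3 peak on them, an H3K27ac peak within 10 kb, or one within 1 kb, in each library; circles are replicate 1, squares replicate 2, open symbols DMSO, filled symbols Corin, and bars the mean of 2. Gained regions sit at or near 0 for H3K4me3, and in both H3K27ac panels the Corin symbols lie above the DMSO symbols, at 39.3% and 34.8% against 19.9% and 23.0% within 10 kb of the gained regions without H3K27ac.

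The share of regions with H3K27ac nearby varied with their position and with the rank of the H3K4me2 peak, while the difference between Corin and DMSO varied less. Regions 1 to 5 kb from a TSS had H3K27ac within 10 kb at 61.1% and 57.8% in Corin and 40.4% and 44.4% in DMSO. For regions 20 to 50 kb away the values were 25.9% and 20.2% in Corin and 7.79% and 10.1% in DMSO. The differences between Corin and DMSO were 17.1 and 14.1 points in these sets. Beyond 50 kb the values were slightly higher than at 20 to 50 kb, 27.5% and 22.3% in Corin and 9.64% and 12.1% in DMSO. The 574 regions with the highest score ranks had 33.3% and 30.7% in Corin and 14.1% and 16.9% in DMSO, a difference of 16.5 points. The 573 with the lowest ranks had 39.8% and 35.1% in Corin and 20.2% and 23.4% in DMSO, a difference of 15.6 points. The next 573 had the highest levels, 44.3% and 39.4% in Corin and 26.2% and 29.0% in DMSO, 14.3 points apart.

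GFI1, RUNX and AP-1 letters were found more often in these regions than in distal H3K4me2 regions at large, while those of most other factors searched were found about as often. In all, 14 motifs were searched in the 300 bp around each centre on both strands, and the share of windows with at least 1 match is given with its exact 95% binomial interval, which covers counting error only. The GFI1 motif AATCNNNGC was in 511 of 2293 windows, or 22.3% (20.6 to 24.0), against 16.7% of all 24332 distal windows. GFI1 is a zinc-finger repressor that works through LSD1 and CoREST. The share was 20.1% in gained regions with H3K27ac, 13.0% in shared regions without it and 14.5% in shared regions with it.

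Some GFI1 matches are letters that Alu repeats also hold. The form AATCCCAGC was in 9.90% of the windows against 6.67% of all distal windows. A further 9 letters common in Alu repeats, AGGCTGAGG, were in 9.16% against 6.90%. In windows without those 9 letters the GFI1 share was 17.9% against 13.4% of all distal windows. The stricter form AATCACNGC, as printed for the region near ZNRF2, was in 43 windows, 1.88% (1.36 to 2.52), against 1.13% of all distal windows. It was in 2.09% of gained regions with H3K27ac and in 0.479% (0.255 to 0.818) of shared regions without it. The intervals of both gained classes overlap for this form.

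RUNX letters, TGTGGT, recognised by the core-binding factor RUNX1 of blood development, were in 708 windows, 30.9% (29.0 to 32.8), against 25.6% of all distal windows. Gained regions with H3K27ac had 27.5% and shared regions without it 20.7%. With the longer form TGTGGTT the share was 12.7% (11.4 to 14.1) in the gained regions without H3K27ac. Those with H3K27ac had 9.33% (7.88 to 11.0) and all distal regions 9.86%. For this form, chosen after seeing the data, the intervals of the gained classes do not overlap, while for TGTGGT they do (29.0 to 32.8 and 25.2 to 29.9). The form TGTGGTG was in 8.85% of the gained regions without H3K27ac and in 9.82% of those with it.

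AP-1 letters, TGANTCA, the element of JUN and FOS dimers, as printed for the FMN1 intron, were in 451 windows, 19.7% (18.1 to 21.4), against 16.2% of all distal windows. Shared regions without H3K27ac had 11.1% and gained regions with it 19.0%. PU.1 letters, GAGGAAGT, were in 5.67% (4.76 to 6.70), against 5.57% of all distal windows and 7.94% (6.59 to 9.46) of gained regions with H3K27ac, whose interval overlaps. In regions of 400 to 800 bp the order was the other way, 6.06% against 7.02% of all distal windows. PU.1 is the ETS factor that specifies myeloid cells. C/EBP letters, TTNCNNAA, were in 56.7% against 55.3%, and MYB letters, AACNGNC, in 33.4% against 33.3%. GATA letters, AGATAA, were in 15.7% against 15.1%. The nuclear receptor letters AGGTCA were in 24.1% against 20.8%, and HOX and MEIS letters, TGATNNAT, in 13.6%, 1.13 times their share in all distal windows. ETS core letters, GGAAGT, were in 28.6% against 27.5%, STAT letters, TTCNNNGAA, in 9.94% against 9.99%, interferon regulatory factor letters in 6.50% against 6.30% and E-box letters, CANNTG, in 81.5% against 79.5%. Letters of the CTCF core motif were in 3 windows, 0.131%, against 0.271%.

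Within windows of 40 to 50% GC, the ratio of the regions to all distal regions was 1.24 for GFI1, 1.17 for RUNX and 1.10 for AP-1, against 1.33, 1.21 and 1.21 over all windows. A match is a run of letters and not a measured binding site.

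**Figure D3:**
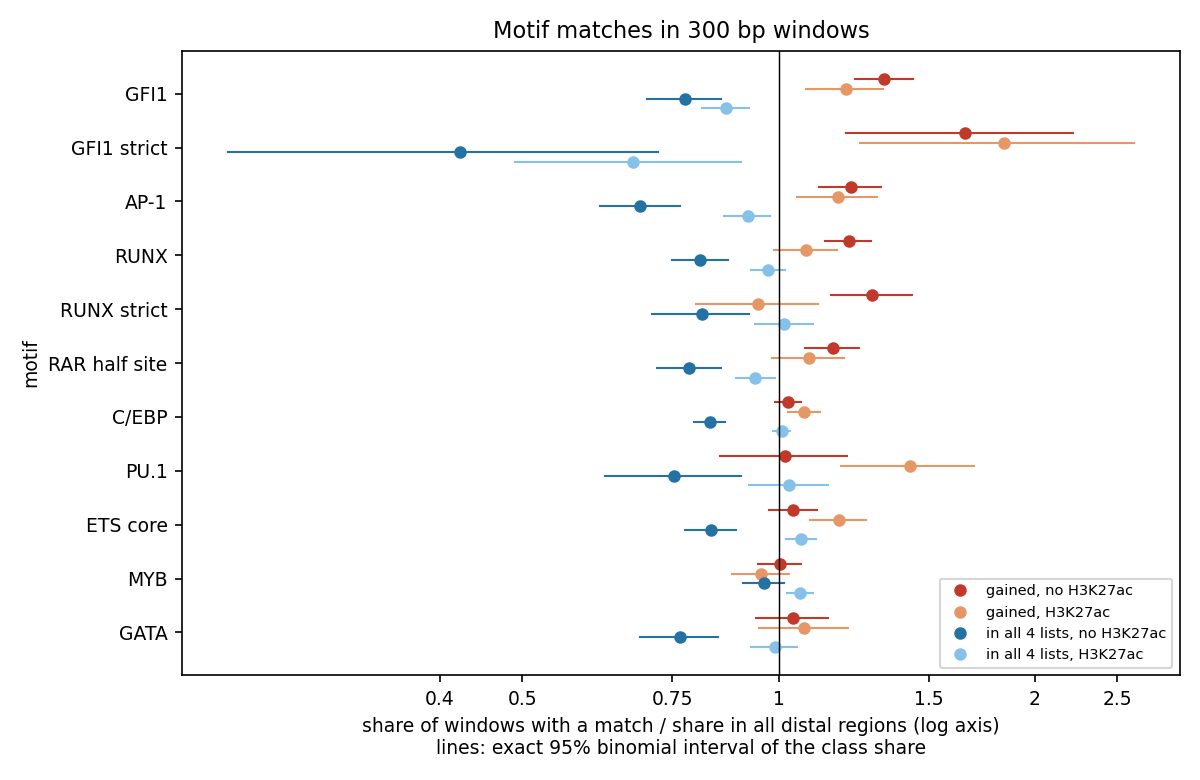
Share of 300 bp windows with a motif match in each class of distal H3K4me2 region, divided by the share in all distal regions (horizontal log axis), for 11 motif forms (vertical axis); dots are classes and lines the exact 95% binomial interval of the class share. Gained regions lie right of 1 for both GFI1 forms and AP-1, and the regions without H3K27ac lie left of those with it for PU.1, at 5.67% against 7.94%.

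AP-1, RUNX and MYB letters were denser at the centres of the regions than beyond 1000 bp. AP-1 matches numbered 0.754 per kb near the centre and 0.346 per kb beyond 1000 bp from it, a ratio of 2.18. The ratio was 2.15 in gained regions with H3K27ac and 1.56 in shared regions without it. RUNX matches went from 0.849 to 1.27 per kb, a ratio of 1.5, against 1.37 and 1.13 in those classes. MYB matches had a ratio of 1.35, against 1.26 in shared regions without H3K27ac and 1.48 in those with it, and C/EBP matches one of 1.22. GFI1 matches of the broad form were rarer at the centre, with a ratio of 0.864, and the dip was deeper in shared regions without H3K27ac, at 0.531. The stricter GFI1 form gave 48 and 36 matches in the 300 bp bins on either side of the centre and 27 to 39 in the bins further out.

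**Figure D4:**
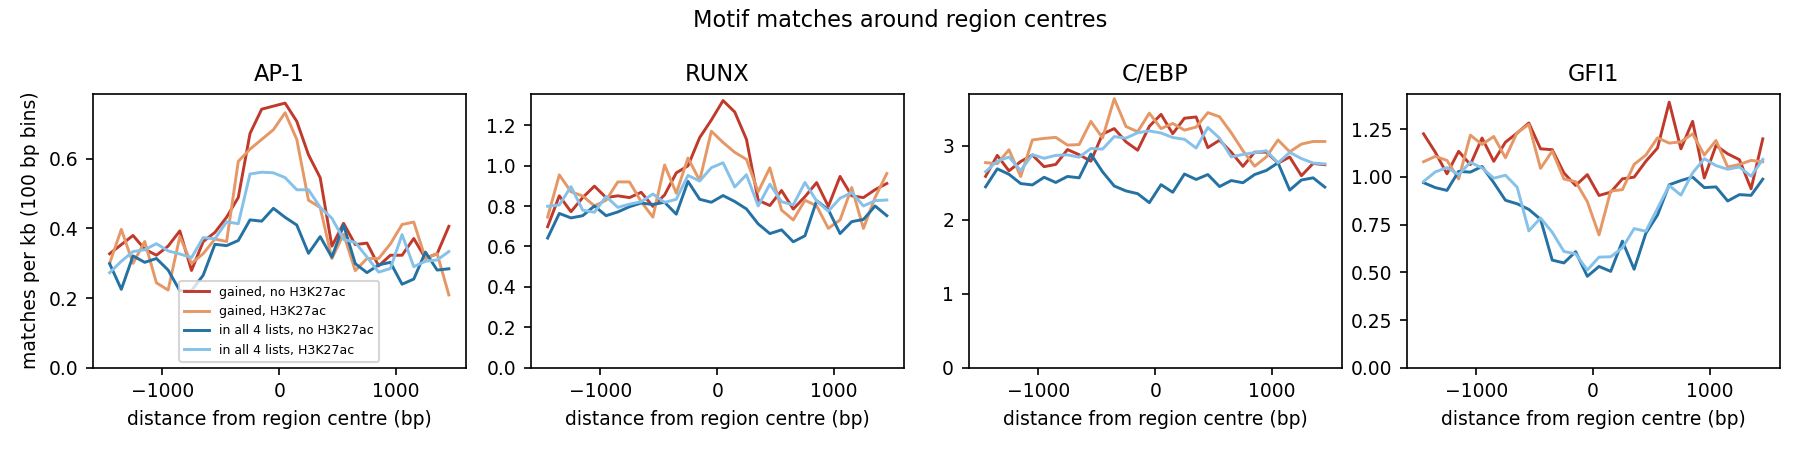
Motif matches per kb (vertical axes, 100 bp bins) by distance from the region centre (horizontal axes, bp) for 4 motifs; lines are the 4 classes of distal H3K4me2 region. AP-1 and RUNX rise at the centre of the gained regions, with ratios of centre to flank of 2.18 and 1.5 in those without H3K27ac, while the broad GFI1 form dips in each class.

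Among the regions themselves, the broad GFI1, AP-1 and RUNX letters were each found most often in the third of 4 sets of 573 or 574 regions ordered by score rank. From the lowest to the highest ranks, GFI1 letters of the broad form were in 18.0%, 22.2%, 25.7% and 23.3%. Alu letters were in 6.98%, 8.38%, 11.7% and 9.58% of the same sets, so they moved with the GFI1 letters, and their part was not tested. AP-1 letters were in 18.5%, 19.4%, 22.2% and 18.6%, and RUNX letters in between 29.5%, in the lowest set, and 32.1%, in the third, with 31.9% in the highest. The stricter GFI1 form, found in 43 windows in all, was higher in each set than in the one before, with 1.57%, 1.75% and 2.79% from the second set to the highest. Regions beyond 50 kb of a TSS had the fewest GFI1 letters, 17.6%, and those at 1 to 5 kb the most, 24.6%, with Alu letters at 4.68% and 11.9%.

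Assigned to the gene with the nearest TSS, the regions fell to 1825 of 20046 protein-coding genes, 9.1%. Of these genes 1478 had 1 region, 271 had 2 and 1 had 8. The gene with 8 was TRIB1, a pseudokinase that directs degradation of C/EBPα, with regions from 17399 to 392457 bp away, together with 8 shared regions carrying H3K27ac. There were 10 genes with 5 regions, and those named, taken in the order of their symbols, are ARHGAP26, ASAP1, ATP2B1, CCNA1, CPVL, FOXO3, HES1, HLX and KCNU1. ARHGAP26 encodes a GTPase-activating protein, and all 5 of its regions lay inside the gene. CCNA1 encodes the cyclin A1 found in germ and myeloid leukaemia cells, and its 5 regions lay between 1124 and 48385 bp from its TSS. HES1, a repressor downstream of Notch, had 4 regions upstream and 1 downstream, between 14523 and 83937 bp from its TSS.

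The promoters of the named genes differed in state. FOXO3, a stress-responsive transcription factor, had promoter H3K27ac over 1189, 1178, 0 and 903 bp in Corin 1, Corin 2, DMSO 1 and DMSO 2. At HLX, a homeobox factor of blood cells, the lengths were 1705, 1164, 0 and 963 bp. ARHGAP26 had 1070 and 190 bp in Corin and 0 bp in both DMSO libraries, and CPVL, CCNA1, HES1, ASAP1 and KCNU1 had none in any library. H3K4me3 at the CCNA1 promoter covered 940 and 808 bp in Corin and 461 and 888 bp in DMSO. A gene's nearest region need not act on it, and no expression was measured in these libraries.

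**Figure D5:**
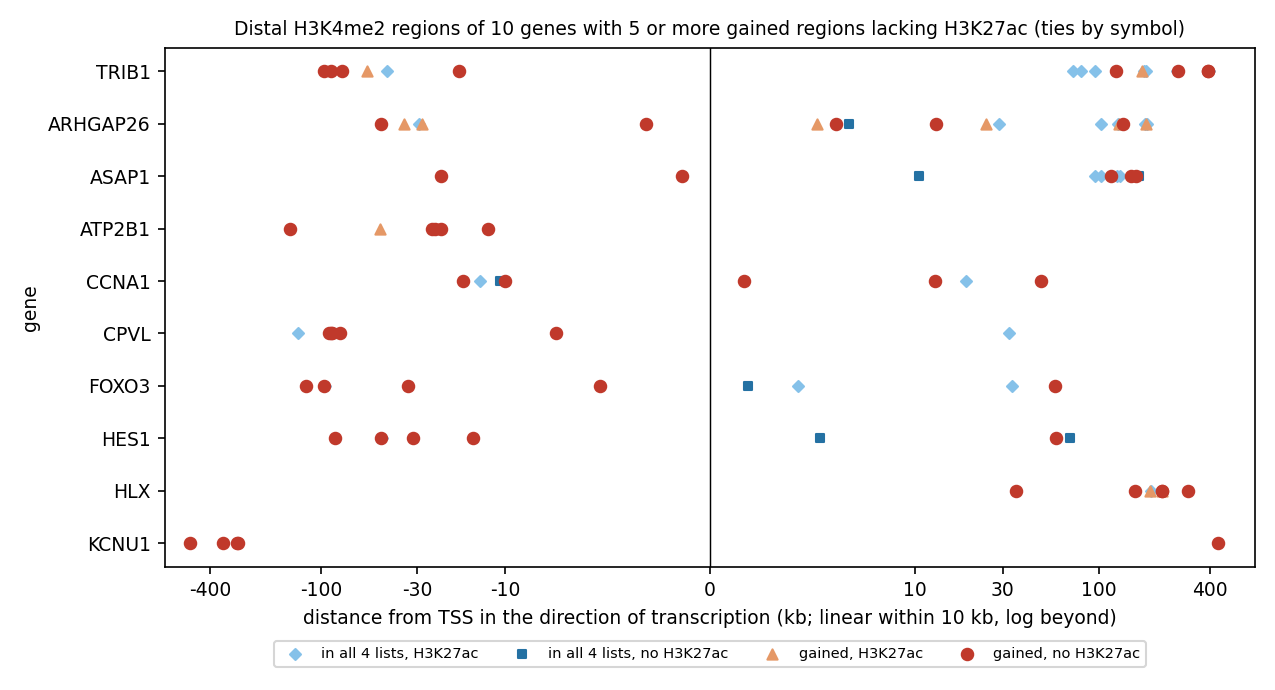
Distance of distal H3K4me2 regions from the TSS of the gene they are assigned to, along the direction of transcription (horizontal axis, kb, linear within 10 kb and log beyond), for 10 genes with 5 or more gained regions lacking H3K27ac, ties taken by symbol (vertical axis); symbols are the classes. TRIB1 has 8 such regions on both sides of its TSS, and the others have 5 each, those of ATP2B1 and CPVL all upstream.

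Of 223 genes in 10 lists, 39 (17.5%) were the nearest gene of at least 1 region, against 9.1% of all protein-coding genes. The lists were drawn up around CoREST, blood cell types and the study's treatments, with earlier results known, so their share is a description. Gained regions with H3K27ac were nearest to 35 of the 223 (15.7%, against 5.73% of all genes), and shared regions without it to 55 (24.7%, against 10.8%), so the excess is found in those classes too. Of 20 genes of the CoREST complex and its recruiters, 5 were nearest to a region. SNAI1, a zinc-finger repressor that recruits LSD1, had 3 regions at 5706 to 17092 bp, along with 3 gained regions with H3K27ac. Its promoter H3K4me3 covered 601 and 284 bp in Corin and 0 and 210 bp in DMSO. ZNF217 and SNAI2 had 2 regions each, and ZMYM2, whose protein binds LSD1 complexes, had 1.

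Of 23 myeloid transcription factors 7 were nearest to a region, but only 3 of 23 had one within 50 kb, a distance at which 13.1% of all protein-coding genes had one. Shared regions without H3K27ac were nearest to 11 of the 23. KLF2 had 3 regions at 39121 to 60957 bp, CEBPB 2 at 155570 and 158008 bp, KLF4 2 at 259998 and 393805 bp, and FOS 1 at 2008 bp. CEBPB encodes a factor of granulocyte and macrophage maturation. Of 26 monocyte and macrophage genes, 7 had exactly 1 region each. CD36, a scavenger receptor, had it at 2278 bp, ITGAM, the integrin CD11b, at 3096 bp, S100A8, a calcium-binding inflammatory protein, at 4084 bp and CD300E at 8008 bp. No H3K4me3 peak lay on the promoters of these 4 genes in any library.

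None of the 18 granulocyte genes was the nearest gene of a region, while 5 had one within 50 kb of a TSS. The shares over all protein-coding genes were 9.1% and 13.1%. Of 24 stem, progenitor and MLL-fusion target genes, 6 were nearest to 14 regions in all. SPINK2, a progenitor marker, had 4 at 3155 to 36336 bp, and the proto-oncogene MYC had 4 at 429903 to 996451 bp. JMJD1C, which encodes a jumonji-domain protein, had 3 inside the gene and FLT3, the receptor kinase, 1 at 15451 bp. Of 25 retinoic acid genes only RXRA, the partner of the retinoic acid receptors, was nearest to any, with 4 regions at 16493 to 82065 bp. Its promoter H3K27ac covered 570, 533, 0 and 390 bp in Corin 1, Corin 2, DMSO 1 and DMSO 2. Shared regions without H3K27ac were nearest to 3 of the granulocyte, 9 of the stem, progenitor and MLL-fusion target and 7 of the retinoic acid genes. Over all protein-coding genes their share was 10.8%.

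Of 22 cytokine receptor and JAK-STAT genes 6 were nearest to a region, with 2 each at IL10RA and IFNGR1 and 1 each at SOCS3 and IL21R. Lists of other lineages had 1 of 20 erythroid, megakaryocyte and mast cell genes (ITGB3), 4 of 22 lymphoid genes (GATA3, CD3E, CD2 and EBF1) and 2 of 25 neuronal genes under REST (UNC13A and VGF). These 7 genes had neither H3K27ac nor H3K4me3 at their promoters in any library. For shared regions without H3K27ac the counts in these lists were 4 cytokine receptor and JAK-STAT, 3 erythroid, megakaryocyte and mast cell, 8 lymphoid and 3 neuronal genes. Over all protein-coding genes the shares were 9.1% for the gained regions without H3K27ac and 10.8% for the shared ones.

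Promoter H3K27ac at the nearest genes was higher in both Corin libraries than in both DMSO libraries, as it was over all genes. An H3K27ac peak within 1 kb of a TSS was present at 47.2% and 45.8% of the 1825 genes in Corin and at 31.6% and 38.4% in DMSO. The values over all protein-coding genes were 43.5% and 42.4% in Corin and 31.2% and 36.4% in DMSO. The difference of 11.5 points at the nearest genes exceeded that at all genes by 2.29 points, 3.24 in replicate 1 and 1.34 in replicate 2, with p = 0.333 by the exact permutation test. Genes nearest to any distal H3K4me2 region had 50.4% and 49.1% in Corin and 36.0% and 42.0% in DMSO, a difference of 10.8 points, and lay above the 1825 genes in each library. With the H3K27ac lists held to matched numbers, the nearest genes had 35.2% and 36.2% in Corin and 31.6% and 35.8% in DMSO, which left a difference of 1.97 points and overlapping groups. The promoter was gained, present in both Corin and neither DMSO library, at 70 of the 1825 genes (3.84%), against 3.22% of all genes. It was lost at 1, against 0.0299% of all genes. At 882 of the genes (48.3%) no library had promoter H3K27ac, against 52.8% of all protein-coding genes.

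Promoter H3K4me3 at the nearest genes was at 59.7% and 60.2% in Corin and 56.9% and 58.9% in DMSO. Over all genes it was at 52.0%, 52.2%, 50.7% and 51.9%. The nearest genes lay above all genes by 7.20 points on average (SD 0.822, n = 4 libraries), higher in 4 of 4, with p = 0.125 by the exact sign-flip test, the smallest possible. Genes nearest to any distal H3K4me2 region had 60.3% and 60.4% in Corin and 58.0% and 59.7% in DMSO, above the nearest genes of the gained regions without H3K27ac in each library. Genes nearest to gained regions with H3K27ac had 71.1%, 71.7%, 68.4% and 70.2%.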

How the data were processed

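CUT&RUN libraries of MOLM-13 cells were read from the peak lists that the authors deposited, 1 per library, each giving position and a score per peak, with a lowest score of 50. The score is the authors' own, its definition is not given, and here it served for ranks inside a single list. Per the submitters' processing notes the tools were Trim Galore, Bowtie2, Picard and MACS2, with GRCh38 (hg38). Their versions, the control and the calling threshold are not given in the sources used here. The lists hold no reads, so sequencing depth is unknown and no detection limit was set. The other libraries of the series were not analysed here.

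Regions were merged and classed in Python 3.11.15 with pandas 2.3.3 and pysam 0.24.0, with an overlap of at least 1 bp, and 84610 TSS of basic protein-coding and long non-coding transcripts from GENCODE release 44. Positions count from 1. Groups followed the titles of the samples. Libraries were compared with exact two-sided permutation and sign-flip tests, which cannot pass 0.05 here. Regions named were the 10 with the highest lower score rank (at most 1 per 100 kb), the 5 longest in both Corin libraries, the 3 on each side of the TSS limit and those with H3K4me3. Genes named were 10 with the most regions, with ties taken by symbol, and up to 4 of each of 10 lists. The regions, lists and motifs were chosen with earlier results of these data known. The region classes, motif search and tests were tested on simulated data. Repeats could not be read from the reference used, so letters common in Alu repeats stood in for them. Some of the best-ranked regions and their sequences are not reported here.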

Additional observations from a re-analysis of the deposited data

How the results depend on the processing

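The number of gained regions without H3K27ac was 938 with top-scoring peaks at matched numbers, and 2768 to 5613 when 1 H3K4me2 library was left out, 5613 without Corin replicate 2 and 4243 without Corin replicate 1. In the other settings tried it was within 1.5 times of 2293, but the regions themselves changed. A score of at least 100 gave 2105 and retained 1148 (50.1%) of the 2293, and coverage of at least 50% of the region retained 80.6%. The Corin minus DMSO difference in H3K4me3 at the regions ranged from -0.0181 to 0.0728 points when a library was left out, turning negative without the H3K4me2 list of DMSO replicate 1. The H3K27ac difference within 10 kb ranged from 13.4 to 17.8 points when a library was left out, its excess over shared regions from 4.37 to 7.20 points, and the promoter difference from 8.08 to 14.9 points. With a score of at least 100 the excess was 3.06 points. With both marks at matched numbers the 3 values were 6.34, 3.89 and 1.15 points.

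Relative to distal regions, the motif ratio per kb of the span shared by both Corin libraries was 1.44 for GFI1 and 1.36 for AP-1. Only distal regions with such a span enter that reference. The ratios that follow are relative to all distal regions of each setting. Settings chosen after seeing the data, among them the matched H3K27ac lists alone and the sets of like width or rank, included ratios of 1.65 for the stricter GFI1 form, 1.29 for the stricter RUNX form, 1.10 for AP-1 in windows of 40 to 50% GC and, in regions of 400 to 800 bp, 0.988 for C/EBP and 0.863 for PU.1, both below 1 where the ratios over all regions were 1.03 and 1.02. Counting any region within 50 kb of a TSS gave 3 myeloid factors, 5 granulocyte, 3 retinoic acid, 2 erythroid and 5 neuronal genes. Replicate numbers were tried as a block, although no label states what same-numbered libraries have in common. Deviations of same-numbered libraries correlated at 0.220, 0.228 and 0.204 for H3K27ac, H3K4me2 and H3K4me3. With the replicate block the H3K27ac difference was 15.6 points, its excess 5.95 points, the promoter difference 11.5 points (p = 0.5 each by an exact sign-flip test, the smallest 2 pairs allow) and the H3K4me3 difference 0.0218 points (p = 1). The share of repeats was not run. With 2 libraries a group and no depth, absence from a list does not show absence of the mark.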
